A study of Mus musculus with 4 samples.

Results

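Hepcidin and the genes that take up, carry, sense, store and export iron were examined in the livers of reciprocal first-generation hybrid mice. The members were 10 genes: the hepcidins Hamp and Hamp2, the transferrin receptors Tfrc and Tfr2, transferrin (Trf), ferroportin (Slc40a1), the ferritin chains Ftl1 and Fth1, ceruloplasmin (Cp) and Hfe. All probe sets whose single gene symbol in the platform annotation was a member were taken. This gave 26 probe sets for 8 of the 10 genes, out of 45101 probe sets and 18193 named genes on the array. For Trf and Ftl1 the annotation names 1 and 3 probe sets, each together with other genes, so no value is given for them. The brightest probe set by mean log2 signal over the 4 arrays stood for each gene. All 8 genes passed the filter on low values and were tested among 11748 genes.

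The samples were whole liver slices from 9-month-old males raised on chow in a specific-pathogen-free facility, with no intervention in either group. The dams of the AB6F1 mice (n = 2) were AJ and their sires B6. For the B6AF1 mice (n = 2) the dams were B6 and the sires AJ. Males of both crosses share the same mix of autosomes and differ in which strain gave the X chromosome, the mitochondria, the Y chromosome and each imprinted allele. The title of the series names nonalcoholic fatty liver disease, and AB6F1 against B6AF1 is the one comparison of its labels. The labels call the mice of a cross biological replicates. The source identifiers of the crosses do not interleave, so handling and cross cannot be told apart.

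Hepcidin is a peptide hormone that hepatocytes secrete. It binds ferroportin, the only known cellular iron exporter, and causes its degradation, which lowers the release of iron into blood. Hepatocytes raise Hamp transcription through BMP and SMAD signalling, in which Hjv, Hfe and Tfr2 take part, and through cytokine signalling by way of STAT3. Tfrc mRNA is stabilised by iron regulatory proteins when cellular iron is low, whereas ferritin is controlled largely at translation, so a ferritin transcript level says little about ferritin protein.

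Hamp and Hamp2 are neighbouring copies of one gene on mouse chromosome 7, and their promoters are shown because the probe sets annotated to them had unlike patterns over the arrays. The sequences are the 250 bases before each RefSeq transcription start in assembly GRCm38.p6, which is of C57BL/6J, read 5′ to 3′ along the minus strand at chr7:30944030-30944279 for Hamp and chr7:30924182-30924431 for Hamp2. The AJ alleles were not used here. Capitals mark the BMP response element core and the STAT core of Hamp, and the letters aligned to them in Hamp2.
Hamp: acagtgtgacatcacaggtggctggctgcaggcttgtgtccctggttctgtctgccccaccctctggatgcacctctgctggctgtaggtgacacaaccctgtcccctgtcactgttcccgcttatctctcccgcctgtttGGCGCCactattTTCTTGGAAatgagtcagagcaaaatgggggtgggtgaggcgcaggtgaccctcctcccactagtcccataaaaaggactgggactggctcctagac
Hamp2: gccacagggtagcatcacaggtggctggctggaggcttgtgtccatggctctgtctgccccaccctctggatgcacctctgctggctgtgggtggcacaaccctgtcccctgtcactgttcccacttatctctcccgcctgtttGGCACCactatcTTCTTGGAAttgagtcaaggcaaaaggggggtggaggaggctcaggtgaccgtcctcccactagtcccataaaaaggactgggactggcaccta

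The promoters aligned over 247 bases without an inner gap, and 227 of these, or 91.9%, were identical. The BMP core GGCGCC lay 109 bases before the start of Hamp, and the aligned letters of Hamp2 were GGCACC, a substitution of G145A counted from the first printed base of Hamp. The STAT core, searched as TTCNNNGAA on both strands, read TTCTTGGAA in both promoters, starting 97 bases before the start of Hamp and 94 before that of Hamp2. The AP-1 core TGAGTCA and 2 E-boxes of the form CAGGTG were also present in both. None of these motifs overlapped another. Of 32851 mouse promoter windows, each likewise the 250 bases before a start, 9.59% held GGCGCC, 7.02% TTCNNNGAA, 4.46% TGAGTCA and 17.2% CAGGTG. A match of letters describes the sequence and does not show that a factor binds.

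None of the 8 tested members of the iron system passed limma's test between the crosses. Tfrc, the receptor that brings transferrin-bound iron into cells, had the largest difference among the members and was 1.99-fold higher in AB6F1, with no overlap between the arrays. The Hamp2 probe set was 1.55-fold higher in AB6F1, a value set by 1 array. Hamp, Tfr2, Slc40a1, Fth1, Cp and Hfe had log2 differences between -0.13 and 0.03. Over all genes tested 25 of 11748, or 0.213%, passed limma with Benjamini-Hochberg adjustment at 0.05, and 9.72% had an unadjusted p under 0.05, where the members had 1 of 8, Tfrc. For 2 of the 8 members, Tfrc and Hamp2, the crosses had no overlapping arrays, against 41.2% of all genes tested. The median log2 difference was -0.03 over the 8 members and 0.02 over all genes tested. The count of 25 genes became 79 without AB6F1 replicate 1, 241 without AB6F1 replicate 2, and 1 without either B6AF1 array.

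**Figure D1:**
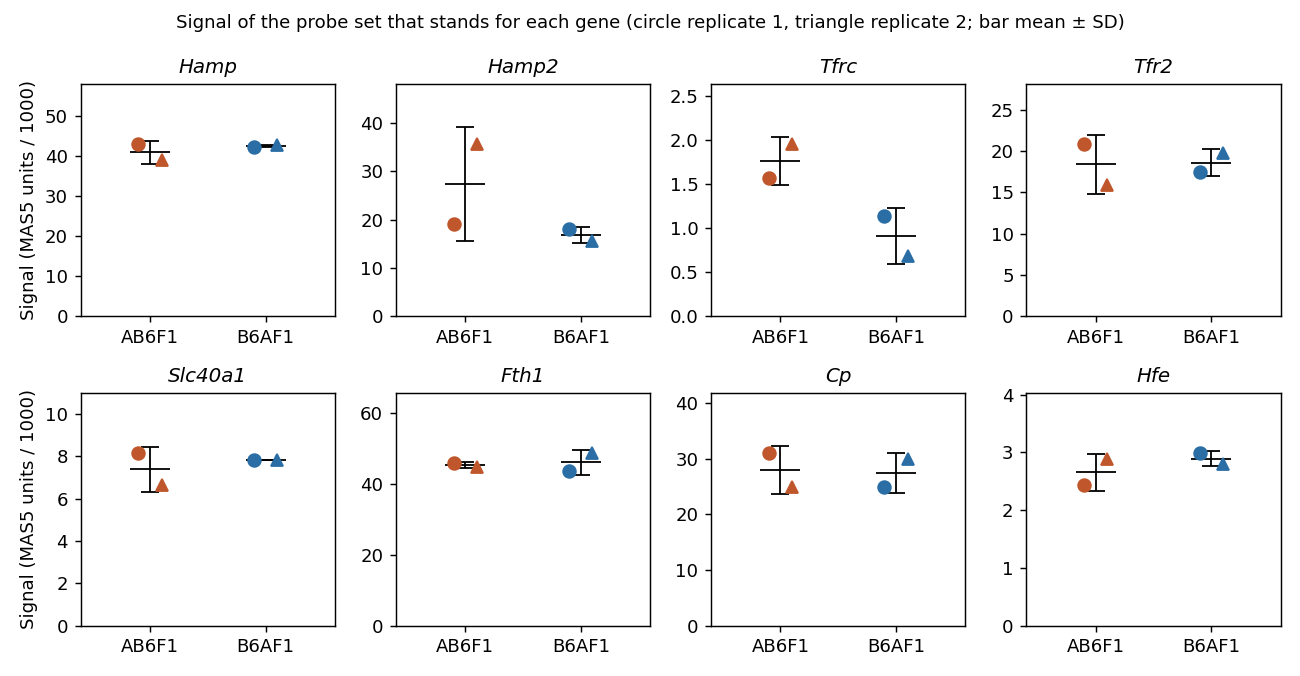
Signal in MAS5 units, scaled down on the axis as its label says, on each of the 4 arrays for the probe set that stands for each of 8 genes, with circles for replicate 1, triangles for replicate 2, and bars for the mean ± SD (n = 2 per cross). The crosses separate for Tfrc, where both AB6F1 arrays lie above both B6AF1 arrays, and for Hamp2, where AB6F1 replicate 2 lies far above the other 3 arrays.

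Each array had a trimmed mean of 500, the value to which the signals appear to be scaled. The medians did not overlap between the crosses, at 78.0 and 75.9 in AB6F1 and 72.8 and 67.2 in B6AF1. Pearson correlations of log2 signal across the tested genes, which are not independent replicates, were 0.961 to 0.975 between arrays. The ratio of 3′ to 5′ signal, a sign of RNA integrity, was 0.807 to 0.909 for the Gapdh controls and 1.54 to 1.77 for the Actb controls, with overlap between the crosses. The small number of arrays limits the precision, and an exact permutation test of 2 against 2 cannot give a p below 0.333.

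Whole liver holds several cell types, and in such samples fewer cells of a type and less RNA per cell cannot be told apart. Hepatocyte markers were abundant on every array: the summed signal of the 9 tested of 10 was 297918 to 303957 in AB6F1 and 318980 to 358131 in B6AF1, and 7 of the 9 had negative log2 differences. Macrophage markers had a summed signal of 12052 to 18601 in AB6F1 and 8252 to 11465 in B6AF1 over 13 tested of 15. Of the 13, 12 were positive, against 53.5% of all genes tested. Marco and Timd4 lay below the filter, and none of the macrophage markers passed limma. An unadjusted p under 0.05 was found for 8 of the 13, 7 higher and 1 lower, against 9.72% of all genes tested. Endothelial markers, 9 tested of 10 with Pecam1 below the filter, summed to 4706 to 5932 in AB6F1 and 4307 to 5682 in B6AF1. Erythroid markers summed to 4088 to 5703 in AB6F1 and 4297 to 5474 in B6AF1, over only 3 tested of 11: 5 had no named probe set and Hba-a1, Slc4a1 and Gata1 lay below the filter. Most of each sum was Alas2, also in the heme synthesis list below, at 3621 and 5303 in AB6F1 and 4997 and 3704 in B6AF1.

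Hamp, the hormone itself, had signals of 43063 and 38964 in AB6F1 and 42305 and 42794 in B6AF1. The lowest and the highest array were both AB6F1, so the crosses overlapped. The means were 41014 ± 2898 (SD, n = 2) and 42549 ± 346 (SD, n = 2), so that the log2 difference came to -0.05 ± 0.12 (SE), with a limma adjusted p of 0.907. The 95% interval of the difference ran from -0.33 to 0.22, so a change of more than 1.26-fold downward or 1.17-fold upward lay outside it. The other Hamp probe set read 39349 and 35378 in AB6F1 and 37104 and 39286 in B6AF1, a log2 difference of -0.03. The direction was not stable, since quantile normalization gave 0.03 and cyclic loess 0.07. The signal was near the upper end of the array: 32 to 57 probe sets were brighter on any one array, and the highest signals were 57982 to 67939. Whether differences among such bright probe sets are understated was not tested.

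Among all genes tested, the patterns most like that of Hamp over the 4 arrays were those of Tfe3, Ttyh2 and Trub1. Their log2 values, centred on each gene's mean, lay at a root mean square distance of 0.00736, 0.0076 and 0.01 from those of Hamp. With 4 arrays and differences this small, the likeness describes only these samples.

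Hamp2, the second hepcidin gene of the mouse, whose role is less clear than that of Hamp, was read by a probe set of suffix _x_at, a kind that can bind related transcripts. It read 19018 and 35637 in AB6F1 and 18047 and 15645 in B6AF1. AB6F1 replicate 2 stood apart, and AB6F1 replicate 1 lay only just above the B6AF1 arrays. The means were 27328 ± 11751 (SD, n = 2) and 16846 ± 1698 (SD, n = 2), so that the log2 difference was 0.63 ± 0.27 (SE) at a limma adjusted p of 0.52, with a 95% interval from -0.01 to 1.27. The gap between the AB6F1 replicates, 0.91 on the log2 scale, was larger than the difference between the crosses. Without AB6F1 replicate 1 the log2 difference of Hamp2 was 1.08 and passed (limma adjusted p = 0.0174), whereas without AB6F1 replicate 2 it was 0.18 (limma adjusted p = 0.638).

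The other Hamp2 probe set, which has no such suffix, read 8.0 and 9.9 in AB6F1 and 23.9 and 15.9 in B6AF1. These signals are far under the filter signal of 60.9 on every array, so no direction is drawn from them. The Hamp2 value thus rests on the _x_at probe set alone. On AB6F1 replicate 2, where the brighter Hamp2 probe set was highest, both Hamp probe sets, the dimmer also of suffix _x_at, were at their lowest. How much of the brighter Hamp2 signal comes from Hamp transcripts was not tested.

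**Figure D2:**
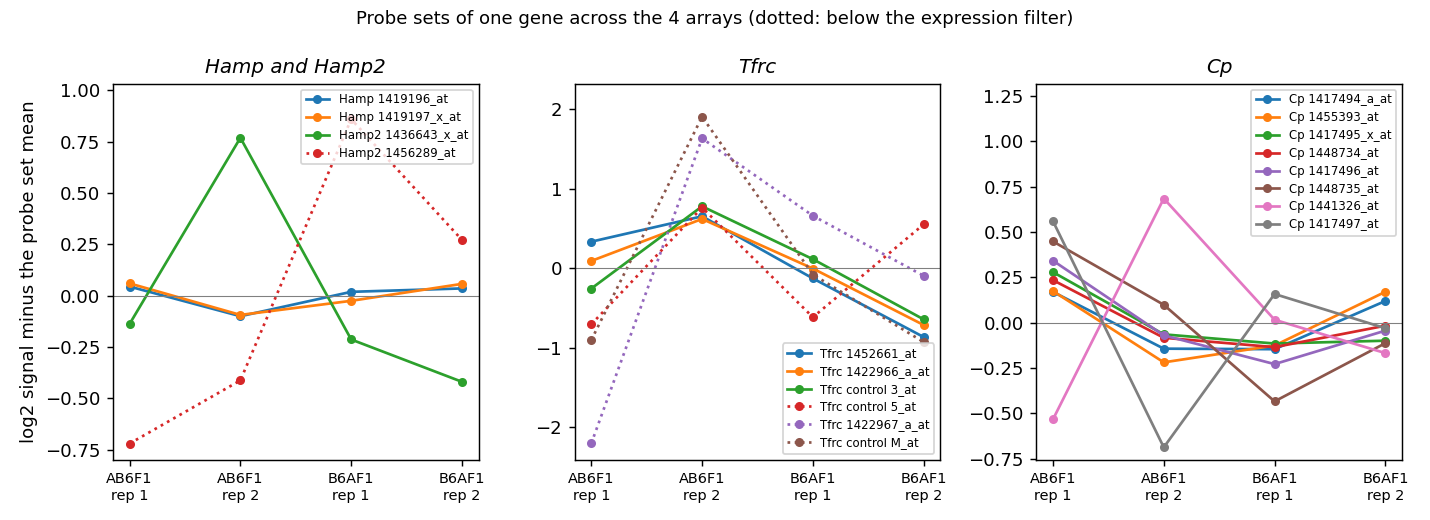
Log2 signal of every probe set of Hamp, Hamp2, Tfrc and Cp on the 4 arrays, minus that probe set's mean, with lines joining the values of one probe set and dotted lines for probe sets below the filter. The Hamp probe sets stay near 0, the brighter Hamp2 probe set is high on AB6F1 replicate 2, and the 3 Tfrc probe sets above the filter share the same highest and lowest array.

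Tfrc had signals of 1568 and 1957 in AB6F1 and 1138 and 682.5 in B6AF1. Both AB6F1 arrays were higher than both B6AF1 arrays, and B6AF1 replicate 2 was the lowest of all. The means were 1763 ± 275 (SD, n = 2) and 910 ± 322 (SD, n = 2), a log2 difference of 0.99 ± 0.25 (SE). The unadjusted p was 0.00567 and the limma adjusted p 0.299, so Tfrc did not pass. The 95% interval, which is not adjusted for the number of genes, ran from 0.40 to 1.59. The log2 difference was positive under all 16 alternatives, lowest at 0.62 when B6AF1 replicate 2 was left out and highest at 1.36 when B6AF1 replicate 1 was left out, and its adjusted p ranged from 0.151 to 0.982.

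The array carried 5 further probe sets for Tfrc, of which 3 belong to the array's own control set. The second brightest read 156.0 and 225.0 in AB6F1 and 146.0 and 89.2 in B6AF1, a log2 difference of 0.72 with no overlap between the crosses. The control probe set at the 3′ end read 93.7 and 192.0 in AB6F1 and 121.1 and 71.6 in B6AF1, a log2 difference of 0.53, and here the crosses overlapped. In each of these 3 probe sets AB6F1 replicate 2 was highest and B6AF1 replicate 2 lowest. The remaining 3 lay below the filter on average, with log2 differences of 0.06, -0.57 and 1.01 and overlapping arrays. Over the 6 Tfrc probe sets 5 were positive and 1 was negative.

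Tfr2, the hepatocyte receptor that senses transferrin saturation upstream of Hamp, read 20839 and 15870 in AB6F1 and 17414 and 19772 in B6AF1. This probe set was of suffix _x_at. The AB6F1 arrays enclosed the B6AF1 arrays. The log2 difference was -0.03 ± 0.16 (SE, limma adjusted p = 0.967), with a 95% interval from -0.40 to 0.35, and it was 0.03 after quantile normalization and 0.06 after cyclic loess. The other Tfr2 probe set, without suffix _x_at or _s_at, was at -0.18 with overlapping arrays. Whether the log2 differences of Tfrc and its paralogue Tfr2 themselves differ was not tested.

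Hfe, an MHC class I-like protein that takes part in iron sensing and is altered in hereditary haemochromatosis, read 2434 and 2886 in AB6F1 and 2984 and 2799 in B6AF1. The crosses overlapped. The log2 difference was -0.13 ± 0.13 (SE; limma adjusted p = 0.799), with a 95% interval from -0.44 to 0.19. The other Hfe probe set, at 238.7 and 271.6 in AB6F1 and 273.5 and 256.1 in B6AF1, gave -0.06.

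Slc40a1, which encodes the iron exporter ferroportin, read 8145 and 6631 in AB6F1 and 7820 and 7837 in B6AF1. The B6AF1 arrays were nearly equal and lay between the AB6F1 arrays. The log2 difference was -0.09 ± 0.13 (SE; limma adjusted p = 0.857), with a 95% interval from -0.41 to 0.23. The second Slc40a1 probe set read 1832 and 1697 in AB6F1 and 1882 and 2315 in B6AF1, a log2 difference of -0.24, with both AB6F1 arrays lower. Hepcidin acts on ferroportin protein, which these arrays do not measure.

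Fth1, the ferritin heavy chain with the ferroxidase centre that loads iron for storage, read 45789 and 44661 in AB6F1 and 43592 and 48568 in B6AF1. The B6AF1 arrays enclosed the AB6F1 arrays. The log2 difference was -0.03 ± 0.12 (SE; limma adjusted p = 0.961), with a 95% interval from -0.31 to 0.26, and it was 0.08 after quantile normalization and 0.10 after cyclic loess. The second Fth1 probe set, of suffix _s_at, read 30704 and 31457 in AB6F1 and 32434 and 36855 in B6AF1, a log2 difference of -0.15 with the AB6F1 arrays lower. Ferritin has many processed copies in the mouse genome, and its probe sets may also bind their transcripts.

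Cp, the copper-containing ferroxidase of plasma that prepares iron for binding to transferrin, read 30926 and 24897 in AB6F1 and 24847 and 29867 in B6AF1. The crosses covered nearly the same range. The log2 difference was 0.03 ± 0.15 (SE; limma adjusted p = 0.97), with a 95% interval from -0.34 to 0.39, and median centring turned it to -0.11. Cp had 8 probe sets, 6 with positive and 2 with negative log2 differences, from -0.13 to 0.55. The value of 0.55 came from a dim probe set that averaged 164 ± 28.0 (SD) over both AB6F1 mice and 112 ± 17.6 (SD) over both B6AF1 mice. Each of the 5 brightest Cp probe sets was highest on AB6F1 replicate 1.

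**Figure D3:**
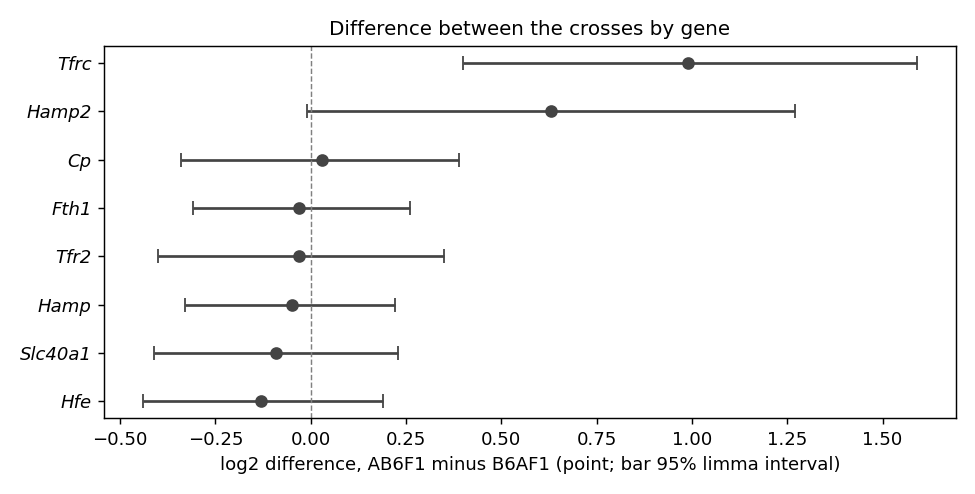
Log2 difference, AB6F1 minus B6AF1, for the probe set that stands for each of 8 genes, with bars for limma's 95% interval without adjustment for the number of genes. The interval of Tfrc, 0.40 to 1.59, lies above 0, that of Hamp2 runs from -0.01 to 1.27, and the other 6 intervals span 0.

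The wider iron system was described with lists of genes. Of 101 further genes 92 were tested, of which 47 were positive and 45 negative, with a median log2 difference of 0.01 against 0.02 over all genes tested. Socs3 rose in AB6F1 and was the only one of the 92 to pass limma. An unadjusted p under 0.05 was found for 9 of the 92, against 9.72% of all genes, and the arrays did not overlap for 34, against 41.2%.

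Genes of BMP and SMAD control of hepcidin had 21 tested of 22, 13 positive and 8 negative, with a median of 0.03. None passed limma, and 1 of the 21 had an unadjusted p under 0.05, against 9.72% of all genes tested. Bmp2, a ligand made by liver endothelial cells, read 586.0 and 594.6 in AB6F1 and 415.3 and 458.6 in B6AF1, so that the log2 difference came to 0.44 ± 0.17 (SE), with a limma adjusted p of 0.479. Bmp6, the iron-responsive ligand from the same cells, was dim, at 70.1 and 32.3 against 66.2 and 131.6, and its arrays overlapped. Tmprss6, the protease that restrains hepcidin by cleaving hemojuvelin, read 10930 and 10378 in AB6F1 and 12442 and 12811 in B6AF1, so that the log2 difference was -0.25 ± 0.11 (SE) at a limma adjusted p of 0.529. Hjv, which encodes hemojuvelin, was at 0.04 ± 0.12. Among SMAD target and pathway genes Id3 was at 0.41 ± 0.19 and Fkbp1a, whose product binds BMP type I receptors, at 0.27 ± 0.13, both with arrays that did not overlap and limma adjusted p above 0.5. Arrays did not overlap for 8 of the 21 genes of this list, against 41.2% of all genes tested. The endothelial markers given above include Bmp2 and Bmp6. Without them the 7 tested markers had a median log2 difference of 0.28 and summed to 4079 to 5276 in AB6F1 and 3826 to 5092 in B6AF1, and their part in the Bmp2 value was not tested.

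Genes of cytokine control had 10 tested of 12, 8 positive and 2 negative, with a median of 0.15. Il6 and Il22ra1 lay below the filter. Socs3, a feedback inhibitor that STAT3 induces, read 962.2 and 1161 in AB6F1 and 296.2 and 358.7 in B6AF1. It rose 3.24-fold, or by 1.70 ± 0.19 (SE) on the log2 scale, with a limma adjusted p of 0.0262, on a probe set of suffix _x_at. On its brightest probe set without suffix _x_at or _s_at Socs3 was at 1.04 (limma adjusted p = 0.42). On the first probe set the call was lost without the intensity trend (limma adjusted p = 0.352). It was also lost without B6AF1 replicate 1 (log2 difference 1.56) and without B6AF1 replicate 2 (1.84). Creb3l3, a hepatocyte transcription factor that can act on Hamp, was at -0.39 ± 0.12 with both AB6F1 arrays lower (limma adjusted p = 0.384). Inhbb, the activin B subunit, was at -0.82 ± 0.39, and Il1b at 0.65 ± 0.34. Stat3 itself read 7756 and 3740 in AB6F1 and 3407 and 4634 in B6AF1, with AB6F1 replicate 1 standing apart.

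Genes of iron transport and binding had 17 tested of 19, 8 positive and 9 negative, with a median of -0.02. None passed limma, and 4 of the 17 had an unadjusted p under 0.05, against 9.72% of all genes tested. Lcn2, a siderophore-binding acute-phase protein, had the largest log2 difference of the iron lists, with replicates far apart: 6539 and 1107 in AB6F1 and 158.1 and 496.7 in B6AF1, so that the log2 difference was 3.26 ± 0.83 (SE) at a limma adjusted p of 0.299. Steap4, a metalloreductase, read 6537 and 4204 in AB6F1 and 2553 and 2661 in B6AF1, so that the log2 difference came to 1.01 ± 0.20 (SE), with a limma adjusted p of 0.204. Slc39a14, which carries iron not bound to transferrin into hepatocytes, was at 0.67 ± 0.22 (limma adjusted p = 0.421). Timd2, a receptor for H-ferritin, was at -0.36 ± 0.12 with both AB6F1 arrays lower (limma adjusted p = 0.431).

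For Lcn2, Steap4, Slc39a14 and Stat3 the highest array was AB6F1 replicate 1, on which Hamp differed little from the B6AF1 arrays. Without AB6F1 replicate 2, AB6F1 was represented by that one array. The log2 differences of Lcn2 and Steap4 were then 4.54 and 1.33, and Slc39a14 also lay above its value over all arrays. Without AB6F1 replicate 1, Lcn2, Steap4 and Slc39a14 were at 1.98, 0.69 and 0.33. Without B6AF1 replicate 1 these genes were at 2.44, 0.98 and 0.57, and without B6AF1 replicate 2 at 4.09, 1.04 and 0.76. The summed macrophage marker signal was also highest on AB6F1 replicate 1, at 18601, and its part in these values was not tested.

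Genes of the iron regulatory proteins and oxygen sensing had the narrowest range of the 7 further lists. All 10 were tested, with log2 differences from -0.15 to 0.28 and a median of 0.08, and none passed limma or had an unadjusted p under 0.05. Aco1 and Ireb2, the RNA-binding proteins that stabilise Tfrc mRNA, were at -0.05 ± 0.12 and -0.03 ± 0.12. Hif1a, a hypoxia-inducible factor, was at 0.25 ± 0.14, Arnt at 0.28 ± 0.25, Egln3 at -0.15 ± 0.17 and Epas1 at 0.09 ± 0.12. The transcript level of Aco1 and Ireb2 does not report their binding activity.

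Genes of heme synthesis had 8 tested of 9, 4 positive and 4 negative, with a median of -0.04, and none passed limma or had an unadjusted p under 0.05. Alas1, the rate-limiting enzyme in liver, read 3542 and 3508 in AB6F1 and 4296 and 1300 in B6AF1, so that its log2 difference of 0.58 ± 0.48 came to 1.44 without B6AF1 replicate 1 and turned to -0.29 without the other B6AF1 array. Cpox was at -0.25 ± 0.12, Fech, which inserts the iron, at -0.25 ± 0.13 and Alad at -0.08 ± 0.11, all with both AB6F1 arrays lower. This held for 3 of the 8 genes tested here and for 18.7% of all genes tested. Alas2, the erythroid enzyme encoded on the X chromosome that males of the crosses take from different strains, was at 0.03 ± 0.22.

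Genes of heme scavenging, breakdown and transport had 13 tested of 13, 3 positive and 10 negative, with a median of -0.07. None passed limma, and 2 of the 13 had an unadjusted p under 0.05, against 9.72% of all genes tested. Hmox1, the inducible heme oxygenase that frees iron from heme, read 421.2 and 740.3 in AB6F1 and 312.5 and 240.1 in B6AF1, so that the log2 difference was 1.03 ± 0.30 (SE) at a limma adjusted p of 0.37. Cd163, the macrophage receptor for haemoglobin bound to haptoglobin, read 194.9 and 219.3 in AB6F1 and 359.1 and 389.2 in B6AF1, so that the log2 difference came to -0.85 ± 0.22 (SE), with a limma adjusted p of 0.299. Cd163 was the one negative gene among the 13 tested macrophage markers. The heme carrier hemopexin (Hpx) was at -0.07 ± 0.13 and haptoglobin (Hp) at -0.03 ± 0.15. Blvrb was at -0.24 ± 0.12 and Abcg2 at -0.27 ± 0.15, each with both AB6F1 arrays lower. Both AB6F1 arrays were lower for 3 of the 13 genes of this list and for 18.7% of all genes tested.

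Genes of iron-sulfur cluster assembly had 13 tested of 16, 4 positive and 9 negative, with a median of -0.13, and none passed limma or had an unadjusted p under 0.05. Iscu, the scaffold on which clusters are built, was at -0.28 ± 0.13, the ferredoxin Fdx1 at -0.24 ± 0.12, Lyrm4, a partner of the cysteine desulfurase, at -0.42 ± 0.21 and Ciao1 at -0.26 ± 0.16. All 4 had both AB6F1 arrays lower, which held for 18.7% of all genes tested and 5 of the 13 here. Hepatocyte markers had a median of -0.16, albumin (Alb) was at -0.16 ± 0.13, and the part of the hepatocyte share in the negative values was not tested.

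**Figure D4:**
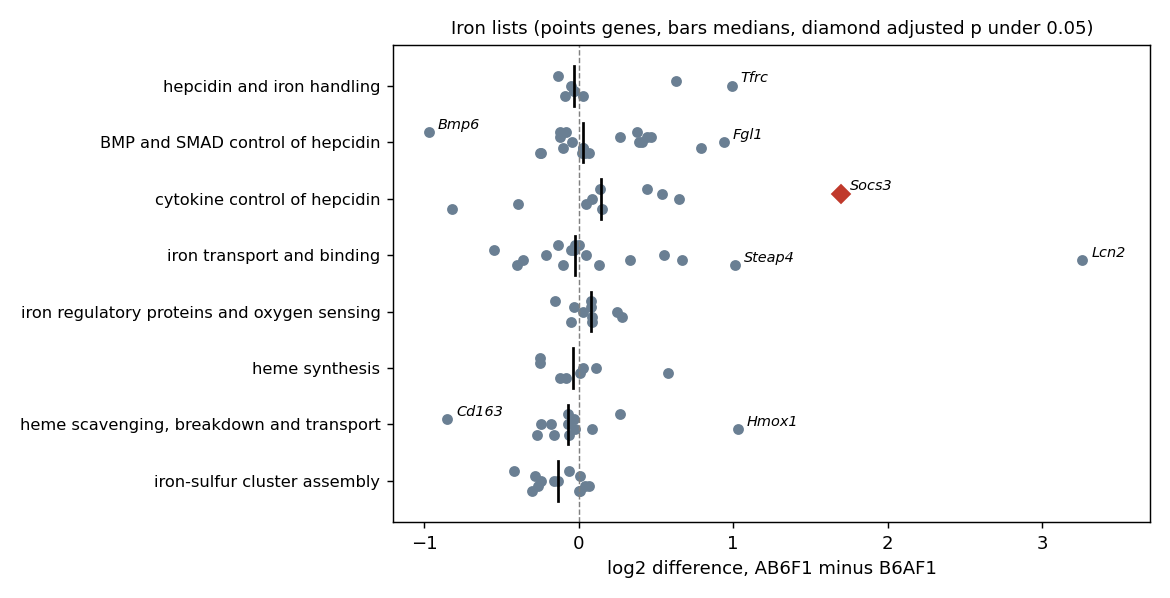
Log2 difference, AB6F1 minus B6AF1, of every tested gene of the member list and the 7 further iron lists, with a point for each gene, a vertical bar for each list's median, and a diamond for the gene with a limma adjusted p under 0.05. The medians lie between -0.13 and 0.15, and Socs3 is the one diamond.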

How the data were processed

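Liver RNA was extracted with Trizol and hybridised as biotin-labelled cRNA to Affymetrix arrays, per the labels' protocols. The deposited values are a linear signal intensity per probe set, made with MAS5 per the submitters' processing notes. From the values, the mean of each array without the lowest and highest 2% of probe sets is 500, which hides any change common to every transcript. No detection calls were used.

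Symbols came from the platform annotation, which gave 34945 probe sets a single symbol, 932 more than one and 9160 none. For 34741 the symbol was read through the RefSeq gene identifier, whether or not this changed it. The 64 control probe sets were not tested. Genes with a mean log2 signal under 5.929, the median over all probe sets and equal to a signal of 60.9, were left out. Log2 signal without a pseudocount was tested with limma 3.58.1 in R 4.3.3 (lmFit, eBayes with intensity trend, two-sided), Benjamini-Hochberg adjusted over 11748 genes. SE are limma's moderated errors, and signals are arithmetic means ± SD. The fit was run on data simulated from limma's own model, which cannot show how well that model suits these 4 arrays. Promoter sequences are RefSeq's.

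The members, the lists and the tests were chosen with earlier results of these data known. The rule for names took all member probe sets, the 4 genes of smallest p in each further list and any that passed, the 3 patterns closest to Hamp, and Alb. Bmp6, Hjv, Stat3, Aco1, Ireb2, Alas2, Hpx and Hp were named after their values were seen. Same-numbered arrays did not deviate together (correlation -0.0273 across genes), so replicate numbers were not used as pairs. Alternatives were other normalizations, 16 added to the signal, other filters, leaving out suffixes _x_at and _s_at, other variance moderation, a replicate block, each array left out, all probe sets tested separately, and a threshold of 0.1.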

Additional observations from a re-analysis of the deposited data

How the results depend on the processing

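No member passed limma under 15 of 16 alternatives, and the count with 1 array left out ran from 0 to 1. The count of 25 genes was 50 after median centring, 46 at a threshold of 0.1, 62 with the replicate block, 0 without the intensity trend (1044 at an unadjusted p under 0.05) and 1 to 241 with 1 array left out. With 1 array left out the lone array of a cross is assumed to vary like the others. The replicate block changed no member's call and kept the count of 1 in the iron lists. That count was 0 without probe sets of suffix _x_at or _s_at, with 9 genes at an unadjusted p under 0.05, against 1111 of 11376 genes tested. It was 0 without the trend, with 7 genes at an unadjusted p under 0.05, against 1044 of 11748. The count also changed with 1 array left out. Median centring moved the median of all tested genes from 0.02 to -0.11. With it the genes at an unadjusted p under 0.05 went from 9 to 19 in the iron lists. Among all 11748 genes tested they went from 1142 to 1350. Signs of differences near 0 turned. After quantile normalization Hamp was at 0.03, Tfr2 at 0.03 and Fth1 at 0.08, after cyclic loess they were at 0.07, 0.06 and 0.10, and after median centring Cp was at -0.11. With 1 array left out Hamp ran from -0.13 to 0.02, Tfr2 from -0.23 to 0.17, Slc40a1 from -0.24 to 0.06, Fth1 from -0.10 to 0.05 and Cp from -0.13 to 0.18. The cause was not tested. Hamp2 had no tested probe set without those of suffix _x_at.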
